A study of Mus musculus with 24 samples.

Results

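Liver RNA of wild-type C57BL/6 mice was compared between 28 and 8 weeks of age, across all 25239 genes that the study lists for this comparison. Of the 24 libraries in the series, 6 entered it, the input libraries of 3 animals at each age. Whole liver tissue was sampled, and each library was made from total RNA before any pull-down. The other groups used here were ApoF gene knockout mice of the same strain at 8 and at 28 weeks, 3 animals each, and the libraries of the same 12 animals pulled down for m6A, methylated adenosine in messenger RNA. ApoF is an apolipoprotein of liver origin that circulates on lipoproteins. The labels give no sex, feeding state or hour of collection. Values per library are not used here, because the tables hold group summaries: every value below comes from 3 animals per group, with a standard error (SE) in place of the single points.

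Hepatocytes make up most of the mass of the liver and secrete most plasma proteins, convert cholesterol to bile acids, burn and export fatty acids, and detoxify drugs and steroids. Much of this program depends on signals from outside. The pulsed secretion of growth hormone in male rodents sets a male pattern of cytochrome P450, sulfotransferase and major urinary protein genes, the circadian clock drives a daily cycle of lipid, bile acid and drug metabolism genes, and heat shock factor drives chaperone genes under stress. A liver sample therefore carries the age, the sex and the hour of the animal together.

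RNA of the Y chromosome was almost absent from the 8-week wild-type group. Ddx3y, a Y-linked RNA helicase, stood at 0.168 normalized counts at 8 weeks and 2339.6 at 28 weeks (log2 ratio 13.77 ± 3.21, adjusted p = 0.00153) by the authors' deposited table, at least 2339.6-fold higher when 3 counts over the 8-week group are taken as the floor. Kdm5d, a Y-linked histone demethylase, went from 0.168 to 870.4 normalized counts (log2 ratio 12.34 ± 3.91, adjusted p = 0.0415) and Eif2s3y, a translation factor gene, from 2.79 to 1273 (log2 ratio 8.84 ± 2.69, adjusted p = 0.0304) by the authors' deposited table. Uty, the other of 4 tested Y-linked genes, went from 0.168 to 239 and did not pass (adjusted p = 0.113). In the knockout the same genes had 2235, 894 and 1331 normalized counts at 8 weeks and 2314, 885 and 1512 at 28 weeks, by the authors' deposited table of that genotype. Xist, the RNA that silences an X chromosome, had 19812 normalized counts at 8 weeks and 9151 at 28 weeks in wild type, and 9717 and 9451 in the knockout, and DESeq2 gave it no p-value in the authors' deposited table. Groups with Y-linked RNA thus also held Xist RNA. In the knockout the log2 ratios of Ddx3y, Kdm5d and Eif2s3y had SE of 2.66, 2.54 and 3.33, against a median of 0.286 over tested genes. The SE of Xist in wild type was 1.81. Y-linked RNA thus varied widely between knockout animals of the same age, but group summaries do not give the value of each animal. The wild-type ages thus differ in Y-linked RNA as well as in weeks, and the 2 cannot be told apart in any result below.

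Apof itself, the gene targeted in the knockout, had 22108 normalized counts at 8 weeks and 24991 at 28 weeks in wild type and did not pass the test (log2 ratio 0.18 ± 0.13, adjusted p = 0.581). In the knockout table, normalized separately, it had 13766 and 12534 normalized counts. In the authors' deposited tables of genotype, the group labelled knockout had 61.5% of the wild-type level at 8 weeks (log2 ratio -0.70 ± 0.11, adjusted p = 2.3e-08) and 49.6% at 28 weeks (-1.01 ± 0.16, adjusted p = 2.5e-06, DESeq2). Apof RNA was thus lowered and not absent in that group, and the labels do not say which part of the gene was changed. The tissue label held: albumin RNA (Alb) stood at 2896010.0 and 2992880.0 normalized counts, and the 14 adipose, muscle and pancreas markers summed to 123 and 380.0. Skeletal muscle markers were near 0 in wild type, where Myh4, a myosin, had 2.44 and 1.42 normalized counts. In the 8-week knockout Myh4 had 6749.7 and the 14 markers summed to 15092, against 441 at 28 weeks. That value touches each setting of wild type beside knockout below, and its part in those results was not tested. Group means summed over all genes to 38536340 normalized counts at 8 weeks and 41445026 at 28 weeks in the authors' deposited table, and how deep each library was sequenced is unknown.

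Of 13474 genes with an adjusted p-value (DESeq2 Wald test, Benjamini-Hochberg), 571 passed 0.05, which is 4.24% of those tested. Higher at 28 weeks were 320 genes (2.37% of those tested) and lower were 251 (1.86%), of which 168 and 111 differed at least 2-fold. The median log2 ratio of 28 over 8 weeks was -0.01 over all tested genes, and 1.07 and -0.92 over those called higher and lower. Of the genes without an adjusted p, 7318 had a mean of 0, 4419 had a p but no adjusted p, and 28 had a ratio but no p, which is how DESeq2 marks a count far from the fit. Genes just past the threshold were Asb8 (adjusted p = 0.0491) and Igfbp4 (0.0498), and just outside it lay Clec7a (0.0503) and Hsd3b7 (0.051). The 571 called genes included 141 members of 54 lists of liver pathways and cell types, described by role below, and 36 lists held a called member.

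**Figure D1:**
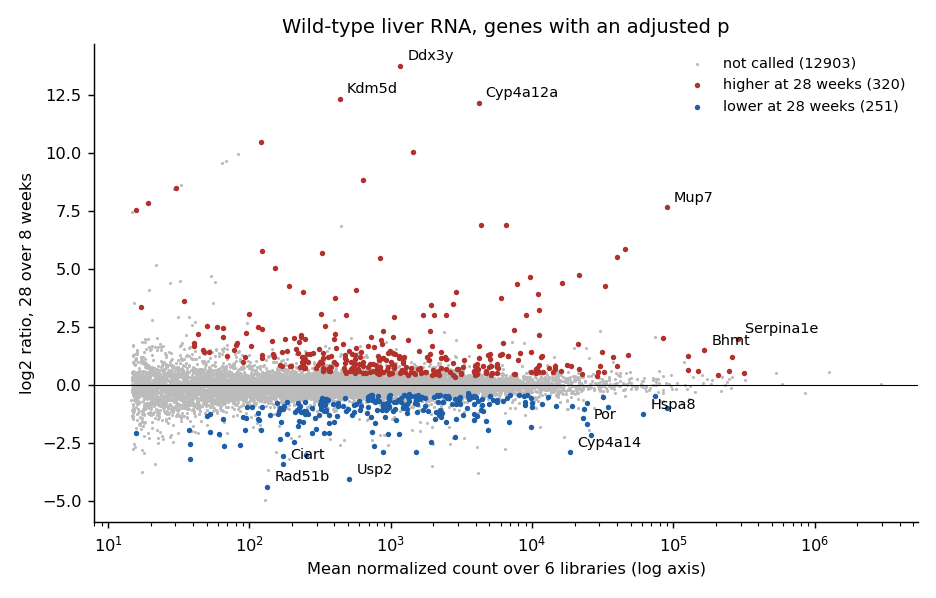
Log2 ratio of 28 over 8 weeks in wild-type liver (y axis) against the mean normalized count over 6 libraries (x axis, log scale), 1 point per gene with an adjusted p. The 320 genes called higher are red, the 251 called lower are blue, and the highest points include the Y-linked genes Ddx3y and Kdm5d.

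At the upper end stood 10 genes fixed by rank among those with at least 100 normalized counts in the higher group. They were Ddx3y, Kdm5d and Eif2s3y of the Y chromosome, Cyp4a12a, Cyp4a12b, Elovl3, Hsd3b5, Mup7 and Mup20 of the male pattern, and Capn8. Capn8, a calpain protease, had 0.168 normalized counts at 8 weeks and 239.9 at 28 weeks (log2 ratio 10.48 ± 2.28, adjusted p = 4.8e-04), at least 239.9-fold higher by the same floor, while its knockout log2 ratio was 5.06 ± 1.88 (adjusted p = 0.104). At the lower end, the 10 genes were Rad51b, Usp2, Ciart, Tcf24, A930033H14Rik, Cyp4a14, Noct, Per3, Slc22a29 and Pcp4l1, of which 4 belong to the clock list. The calls of Kdm5d, Rad51b, Ciart, Cyp4a14 and Noct were lost when p was adjusted over every gene with one. Rad51b, a recombination repair gene, had the lowest ratio of these, with 256 normalized counts at 8 weeks and 12.2 at 28 weeks (log2 ratio -4.38 ± 1.41, adjusted p = 0.0466) by the authors' deposited table. Pcp4l1, a small calmodulin-binding protein gene, had 1315 normalized counts at 8 weeks and 215 at 28 weeks (log2 ratio -2.61 ± 0.27, adjusted p = 4.7e-18) and held 266 and 194 in the knockout. Tcf24, a helix-loop-helix factor gene, fell in each genotype, from 309.7 to 37 normalized counts in wild type (log2 ratio -3.07 ± 0.69, adjusted p = 8.3e-04) and by a knockout log2 ratio of -4.89 ± 1.43 (adjusted p = 0.0204) by the authors' deposited tables. Slc22a29, of the organic anion transporter family, fell from 114 to 18.5 (log2 ratio -2.63 ± 0.68, adjusted p = 0.0063), and A930033H14Rik, an RNA of unstated function, from 448 to 56.3 (log2 ratio -2.99 ± 0.94, adjusted p = 0.0384).

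Genes of the male liver pattern were higher at 28 weeks. Of 20 tested male-biased genes, 17 rose, 0 fell and 3 did not pass, with a median log2 ratio of 3.90. Cyp4a12a, a fatty acid hydroxylase under androgen control, went from 1.81 to 8366 normalized counts (log2 ratio 12.18 ± 2.13, adjusted p = 5.1e-06) by the authors' deposited table, and Cyp4a12b, a near copy that can share its reads, from 2.7 to 2871. Hsd3b5, a ketosteroid reductase of male liver, had 109.7 normalized counts at 8 weeks and 13022 at 28 weeks (log2 ratio 6.89 ± 1.30, adjusted p = 3.0e-05) by the authors' deposited table. Elovl3, an elongase of very long chain fatty acids, had 72.8 normalized counts at 8 weeks and 8692 at 28 weeks (log2 ratio 6.90 ± 1.55, adjusted p = 8.6e-04) by the authors' deposited table. The remaining called members spanned log2 ratios from 1.26 ± 0.36 for Ugt2b38, a glucuronosyltransferase, to 5.87 ± 1.27 for Mup20, a urinary pheromone protein. In the knockout, whose 8-week group carried Y-linked and Xist RNA, 1 of 19 tested members rose, Cyp7b1 at 3.66 ± 1.08 (adjusted p = 0.0218). The median there was 0.79, and of 14798 knockout genes 2.03% rose and 2.46% fell. Cyp4a12a already had 2379 normalized counts in the 8-week knockout and 4892 at 28 weeks, and its age effect differed between genotypes by 11.14 ± 2.92 (adjusted p = 0.0177, Wald test of the difference of the deposited log2 ratios, Benjamini-Hochberg over 17029 genes, of which 1.2% passed). It was the only male-biased gene of 19 whose difference passed, and for the other 18 a difference was not shown.

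Female-biased genes gave the mirror image only in part. Of 25 tested, 0 rose, 2 fell and 23 did not pass, although 23 had negative log2 ratios and the median was -1.82. Tox, a nuclear factor of the female pattern, fell from 590.3 to 140.5 normalized counts (log2 ratio -2.07 ± 0.50, adjusted p = 0.0023), and Cyp39a1, an oxysterol hydroxylase, from 1322 to 509.5 (log2 ratio -1.38 ± 0.43, adjusted p = 0.0364) by the authors' deposited table. In the knockout, where 2.46% of all tested genes fell, 1 of 11 tested members fell and 0 rose. That member was Cyp39a1 (-0.83 ± 0.25, adjusted p = 0.0301), while Tox did not pass there (0.21 ± 0.63, adjusted p = 0.939). The median SE of the female-biased list was 1.54 and of the male-biased list 0.96, against 0.218 over all tested genes. Cyp3a41a and Cyp3a44, steroid hydroxylases with near copies, were among the 28 genes without a p, at 27979.8 and 27336 and at 3602 and 6319 normalized counts.

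Major urinary proteins are lipocalins made by the liver that carry pheromones into urine, and their genes are near copies of each other, so single values are uncertain where reads are shared. Of 21 tested, 15 rose, 0 fell and 6 did not pass, with a median log2 ratio of 2.39. Mup7 had 877 normalized counts at 8 weeks and 178981 at 28 weeks (log2 ratio 7.67 ± 1.50, adjusted p = 6.5e-05), Mup19 had 743 normalized counts at 8 weeks and 18484 at 28 weeks (log2 ratio 4.64 ± 0.65, adjusted p = 1.4e-09), and Mup3 had 33620.5 normalized counts at 8 weeks and 136705 at 28 weeks (log2 ratio 2.02 ± 0.40, adjusted p = 1.0e-04) by the authors' deposited table. Summed over 22 listed genes, group means went from 133534 to 889180.0 normalized counts. The knockout, with Y-linked and Xist RNA at each age, also showed higher Mup RNA at 28 weeks. There 8 of 21 rose, 0 fell, the median was 2.52, and the sum went from 218061 to 1026720.0. Of 22 members tested for the difference between genotypes, 0 were called with wild type above and 1 with wild type below.

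**Figure D2:**
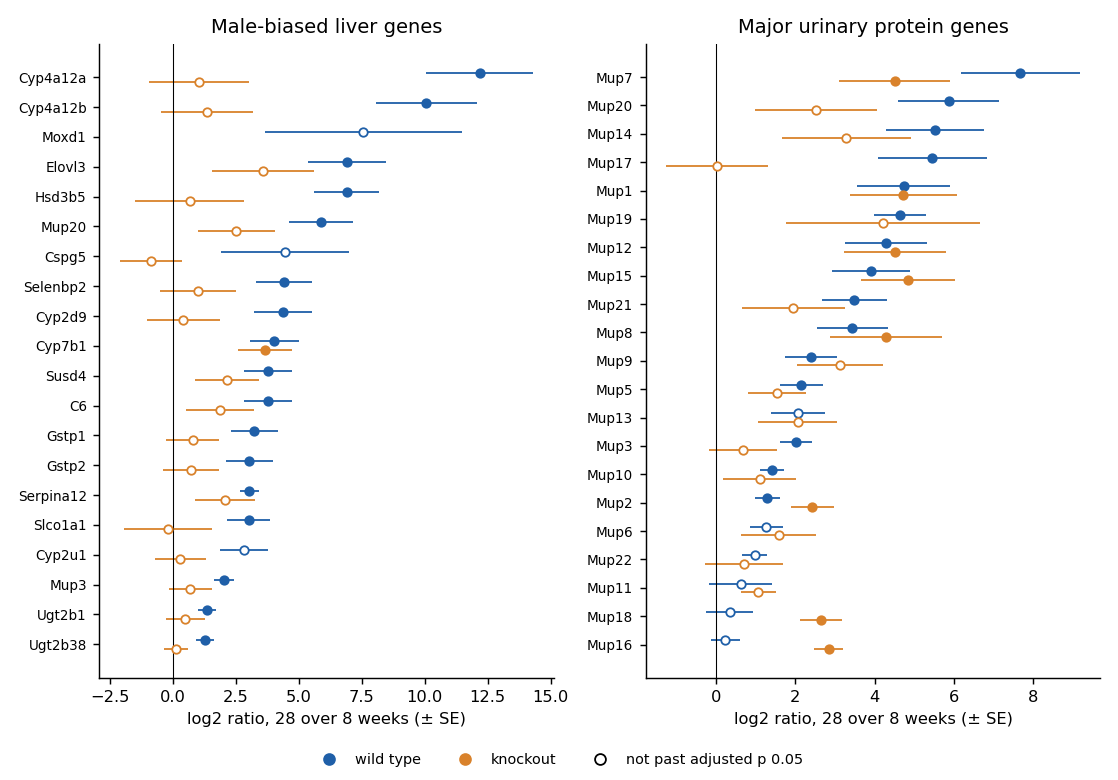
Log2 ratios of 28 over 8 weeks ± SE (x axis, 3 animals per group) for tested male-biased genes (left) and major urinary protein genes (right), wild type in blue and knockout in orange, filled where the adjusted p was under 0.05. Male-biased genes are filled for wild type in 17 of 20 rows, while urinary protein genes are filled in 15 of 21 rows for wild type and 8 of 21 for the knockout; Moxd1 has no knockout point for want of an adjusted p.

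Circadian clock genes changed in both directions. Of 25 tested, 3 rose and 9 fell and the other 13 did not pass, against 4.24% of all genes called. The called members that fell are mostly outputs and repressors of the loop. Usp2, a clock-driven ubiquitin protease, had 965 normalized counts at 8 weeks and 57.4 at 28 weeks (log2 ratio -4.07 ± 0.87, adjusted p = 3.4e-04) by the authors' deposited table. Ciart, a repressor of the activator pair, had 318 normalized counts at 8 weeks and 30 at 28 weeks (log2 ratio -3.41 ± 1.09, adjusted p = 0.0441), and Per3, a period gene, 2670.4 normalized counts at 8 weeks and 366 at 28 weeks (log2 ratio -2.87 ± 0.73, adjusted p = 0.00458). Dbp, a rhythmic activator that binds D-box sites, had 4735 normalized counts at 8 weeks and 993 at 28 weeks (log2 ratio -2.25 ± 0.43, adjusted p = 3.2e-05) by the authors' deposited table. Its relative Tef fell (log2 ratio -1.51 ± 0.40, adjusted p = 0.00687), the period gene Per2 (log2 ratio -2.47 ± 0.68, adjusted p = 0.012), the mitotic kinase gene Wee1 (log2 ratio -2.05 ± 0.51, adjusted p = 0.00386), and Noct, a rhythmic phosphatase (log2 ratio -2.88 ± 0.93, adjusted p = 0.049). Of the 3 that rose, 2 belong to the activator limb: Clock, a member of the activator pair, had 1065 normalized counts at 8 weeks and 2724 at 28 weeks (log2 ratio 1.35 ± 0.27, adjusted p = 1.1e-04), and its paralog Npas2 21.3 normalized counts at 8 weeks and 178 at 28 weeks (log2 ratio 3.06 ± 0.86, adjusted p = 0.0145). Arntl, the partner of each, had 206 normalized counts at 8 weeks and 842 at 28 weeks and did not pass (adjusted p = 0.179).

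In the knockout the same list had 2 members higher and 0 lower of 25, with a median log2 ratio of 0.14 against -0.44 in wild type. Dbp held 4745 and 5034 normalized counts there. The age effect differed between genotypes for 3 clock genes, Usp2 (-4.14 ± 1.07, adjusted p = 0.016), Noct (-4.41 ± 1.09, adjusted p = 0.00841) and Dbp (-2.34 ± 0.68, adjusted p = 0.048). For the remaining 22, a difference was not shown. The hour at which livers were taken is unknown, and its part in these values was not tested.

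Some promoters of clock genes carry the letters that clock factors bind. The windows of 2 clock genes among the 10 lowest ratios are printed, each holding such a match. The window runs from 250 bases before to 50 after the start (RefSeq, GRCm38.p6, 5′ to 3′ on the gene's strand). Motifs were searched on each strand: the E-box CACGTG, bound by the activator pair, and the D-box as TTATGTAA or TTACGTAA, bound by Dbp and Tef. Capitals mark E-boxes in the Ciart window at chr3:95882179-95882478, minus strand, and D-boxes in the Per3 window at chr4:151044616-151044915, minus strand.
Ciart: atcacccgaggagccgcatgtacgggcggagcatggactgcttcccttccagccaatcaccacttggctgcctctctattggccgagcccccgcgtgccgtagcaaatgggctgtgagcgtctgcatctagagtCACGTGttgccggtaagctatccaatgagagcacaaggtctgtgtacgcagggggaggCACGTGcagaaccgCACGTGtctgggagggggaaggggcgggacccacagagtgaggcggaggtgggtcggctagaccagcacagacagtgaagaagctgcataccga
Per3: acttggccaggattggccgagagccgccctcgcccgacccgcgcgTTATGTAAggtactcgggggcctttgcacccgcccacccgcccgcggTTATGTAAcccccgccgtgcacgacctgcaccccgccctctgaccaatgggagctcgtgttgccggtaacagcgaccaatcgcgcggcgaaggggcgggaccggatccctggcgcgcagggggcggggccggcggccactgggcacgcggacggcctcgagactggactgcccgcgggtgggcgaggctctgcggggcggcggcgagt
The Ciart window held 3 E-boxes and the Per3 window 2 D-boxes. An E-box lay in 5 of 19 clock list windows (26.3%) and in 1074 of 10654 windows of tested genes (10.1%). A D-box lay in 1 of 19 and in 75 of 10654 (0.704%). These are matches of letters, chosen for print after the ratios were known, and a window without a match says nothing about a factor.

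Among heat shock genes, which code for protein-folding chaperones, 9 of 18 tested fell at 28 weeks, 0 rose and 9 did not pass, against 1.86% of all genes called lower. Of the 18, 16 had negative log2 ratios, with a median of -0.45. Hspa8, the constitutive cytosolic chaperone, stood at 86298 normalized counts at 8 weeks and 35868 at 28 weeks (log2 ratio -1.27 ± 0.12, adjusted p = 3.5e-23) by the authors' deposited table. Hsph1, a nucleotide exchange factor for it, had 4624 normalized counts at 8 weeks and 1864 at 28 weeks (log2 ratio -1.31 ± 0.24, adjusted p = 1.5e-05), and Dnajb1, a J-domain partner, 1077 normalized counts at 8 weeks and 514 at 28 weeks (log2 ratio -1.07 ± 0.15, adjusted p = 3.2e-10). The inducible chaperones Hspa1a (log2 ratio -2.07 ± 0.51, adjusted p = 0.00333) and Hspa1b (log2 ratio -2.01 ± 0.45, adjusted p = 8.6e-04) fell furthest, though they are near copies that share reads. Dnaja1 (-0.74 ± 0.16), Chordc1 (-0.75 ± 0.14), Bag3 (-0.48 ± 0.12) and Hspa4l (-0.42 ± 0.13), all chaperones or cochaperones, also passed, Hspa4l with a call lost when p was adjusted over every gene with one, in the authors' deposited table. In the knockout 0 of 17 tested members were called, with a median of 0.16. The age effect differed between genotypes for 1 of 17, and for the other 16 a difference was not shown. That gene was Hspa8, with 64997 and 67718 normalized counts in the knockout and a difference of -1.33 ± 0.31 (adjusted p = 0.00377).

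Heat shock factor binds inverted GAA repeats, searched here as GAANNTTC, which reads alike on each strand. The windows of Hsph1 (chr5:149636287-149636586, minus strand) and Chordc1 (chr9:18292017-18292316, plus strand) are printed as called members that hold it, in capitals (RefSeq, GRCm38.p6).
Hsph1: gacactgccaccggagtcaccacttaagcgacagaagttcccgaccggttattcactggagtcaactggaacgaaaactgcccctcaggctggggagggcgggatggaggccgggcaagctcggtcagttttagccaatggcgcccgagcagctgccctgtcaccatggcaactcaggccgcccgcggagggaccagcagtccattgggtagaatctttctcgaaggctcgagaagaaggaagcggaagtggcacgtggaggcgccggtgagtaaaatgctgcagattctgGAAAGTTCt
Chordc1: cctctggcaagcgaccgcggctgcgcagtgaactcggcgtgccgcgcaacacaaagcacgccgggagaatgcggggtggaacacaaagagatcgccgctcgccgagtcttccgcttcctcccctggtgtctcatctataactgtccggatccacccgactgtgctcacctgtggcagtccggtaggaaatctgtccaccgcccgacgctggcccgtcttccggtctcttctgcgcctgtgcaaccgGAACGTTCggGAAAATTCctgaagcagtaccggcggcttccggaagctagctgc
The Hsph1 window held 1 match and the Chordc1 window 2. Of 13 heat shock list windows, 8 held the motif (61.5%), and 607 of 10654 windows of tested genes (5.7%) did. Among the 8 windows of members called lower, 6 held it. This motif, too, was chosen after the ratios were known.

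**Figure D3:**
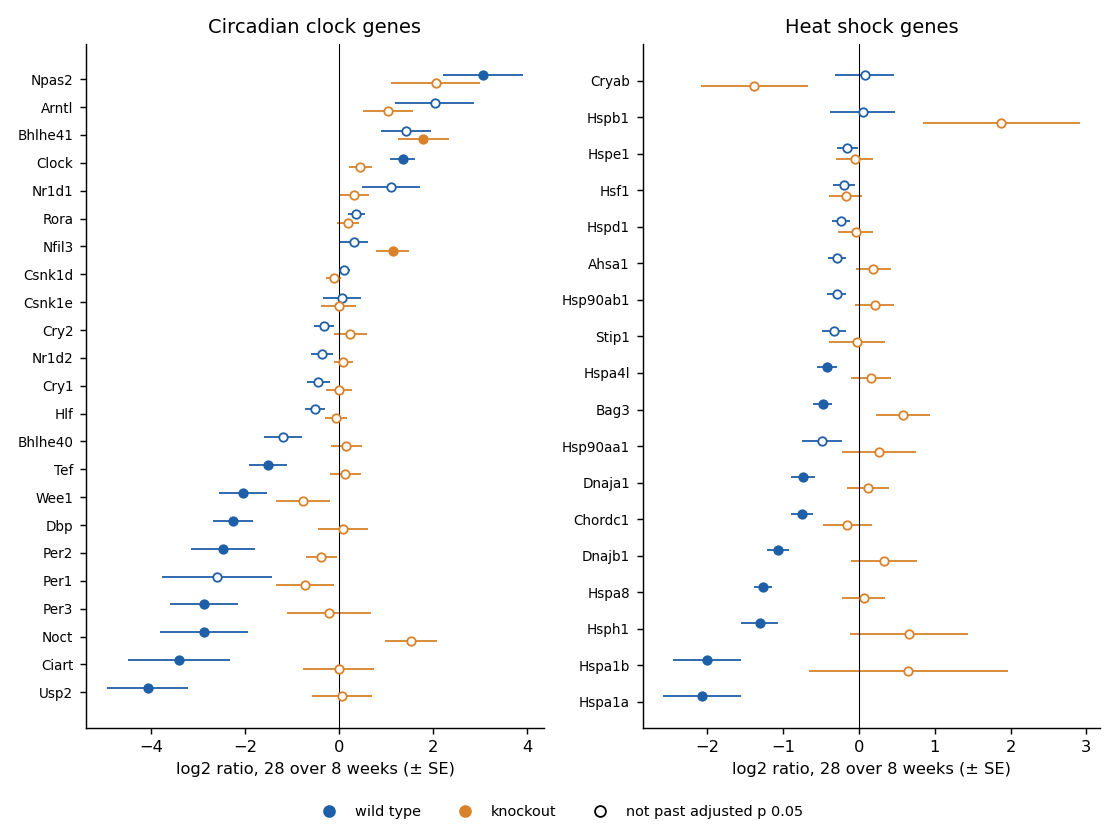
Log2 ratios of 28 over 8 weeks ± SE (x axis, 3 animals per group) for 23 clock genes (left) and 18 heat shock genes (right), wild type in blue and knockout in orange, filled where the adjusted p was under 0.05. In wild type 8 clock and 9 heat shock genes are filled below 0, and 0 are in the knockout; Hspa1a has no knockout point for want of an adjusted p.

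Immediate early genes, which answer stimuli within minutes, had negative log2 ratios in all 20 tested members, but 2 passed. Nr4a1, a nuclear receptor gene of this class, went from 348 to 63.1 normalized counts (log2 ratio -2.46 ± 0.63, adjusted p = 0.00573), and Atf3, a stress-induced factor gene, from 300.5 to 69.6 (log2 ratio -2.11 ± 0.58, adjusted p = 0.012) by the authors' deposited table. Fos, the prototype, stood at 1673 and 106 normalized counts with no p-value. In the knockout 0 of 25 passed in either direction.

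Bile acid genes moved in opposite directions. Of 30 tested, 5 rose, 4 fell and 21 did not pass (30% called, against 4.24% of all tested genes). The median log2 ratio was -0.04. Cyp7a1, the rate-limiting enzyme of the classic pathway, fell from 7785 to 2053 normalized counts (log2 ratio -1.92 ± 0.35, adjusted p = 1.7e-05) by the authors' deposited table. It fell in the knockout as well (log2 ratio -1.32 ± 0.39, adjusted p = 0.0224). Cyp8b1, which directs synthesis to cholic acid, rose from 2791 to 9695 (log2 ratio 1.80 ± 0.42, adjusted p = 0.00167), and Cyp7b1, an oxysterol hydroxylase of the alternative pathway and a male-biased gene, from 334 to 5434 (log2 ratio 4.03 ± 0.98, adjusted p = 0.00277). Acox2, which shortens the side chain, had 3903 normalized counts at 8 weeks and 7415 at 28 weeks (log2 ratio 0.93 ± 0.16, adjusted p = 5.3e-06) by the authors' deposited table. Among transporters, the importers Slc10a1 (log2 ratio 0.58 ± 0.17, adjusted p = 0.0292) and Slco1a1 (log2 ratio 3.01 ± 0.85, adjusted p = 0.0149, also male-biased) rose. Abcc4, a basolateral exporter, fell (log2 ratio -1.15 ± 0.24, adjusted p = 2.7e-04), and Abcg5, a sterol exporter subunit (log2 ratio -0.80 ± 0.20, adjusted p = 0.00395). Slc10a1 fell in the knockout (-0.64 ± 0.20, adjusted p = 0.0315), and the difference between genotypes was 1.22 ± 0.26 (adjusted p = 0.00135).

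Of 26 tested cholesterol uptake and synthesis genes, 1 rose and 4 fell (19.2% called, against 4.24% of all tested genes). Their median log2 ratio was 0.06. The member that rose was Dhcr7, of the last step of synthesis, from 1728 to 2624 normalized counts (log2 ratio 0.60 ± 0.13, adjusted p = 5.0e-04) by the authors' deposited table. In the knockout 0 of 26 passed in either direction.

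Of 39 tested genes of fatty acid oxidation and other PPAR alpha targets, 0 rose, 4 fell and 35 did not pass, against 1.86% of all genes called lower. Of the 39, 31 had negative log2 ratios, and the median was -0.23. Cyp4a14, a PPAR alpha-responsive hydroxylase, went from 32509 to 4379.5 normalized counts (log2 ratio -2.89 ± 0.92, adjusted p = 0.042) by the authors' deposited table. Acadl, a long-chain acyl-CoA dehydrogenase, had 11671 normalized counts at 8 weeks and 7994 at 28 weeks (log2 ratio -0.55 ± 0.12, adjusted p = 3.9e-04), Acot1, a thioesterase, 2109 normalized counts at 8 weeks and 956 at 28 weeks (log2 ratio -1.14 ± 0.28, adjusted p = 0.00277), and Eci2, an enoyl-CoA isomerase, 4432 normalized counts at 8 weeks and 3118 at 28 weeks (log2 ratio -0.51 ± 0.13, adjusted p = 0.00367). Ppara (-0.61 ± 0.27, adjusted p = 0.222) and Cpt1a, the carnitine gate of mitochondrial oxidation (-0.49 ± 0.18, adjusted p = 0.116), did not pass. In the knockout 2 of 39 rose and 0 fell, and Eci2 differed between genotypes by -0.95 ± 0.23 (adjusted p = 0.00838). Fatty acid and triglyceride synthesis had 1 call of 23 (4.35%, near the 4.24% of all genes), Fads2, a desaturase, which fell from 24900.1 to 13419.5 (log2 ratio -0.89 ± 0.26, adjusted p = 0.023), while Fasn, fatty acid synthase (-0.26 ± 0.68, adjusted p = 0.936), and its regulator Srebf1 (-0.67 ± 0.23, adjusted p = 0.0785) did not pass.

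Among 29 lipoprotein genes, 2 rose and 1 fell (10.3% called, against 4.24% of all tested genes). Their median log2 ratio was 0.01. Lipg, endothelial lipase, which cuts phospholipids of high density lipoprotein, fell from 1544 to 360.1 normalized counts (log2 ratio -2.10 ± 0.34, adjusted p = 4.1e-07) by the authors' deposited table. Its knockout values were 541 and 525, and the age effects differed by -2.06 ± 0.47 (adjusted p = 0.00313). Apon, an apolipoprotein gene that lies beside Apof, rose from 7865 to 11664 (log2 ratio 0.57 ± 0.11, adjusted p = 5.8e-05), and Sort1, a sorting receptor of hepatic lipoprotein export, from 533 to 1376 (log2 ratio 1.37 ± 0.35, adjusted p = 0.00451) by the authors' deposited table. Of 24 lipid droplet and uptake genes 2 rose and 2 fell (16.7% called). Fitm1, which partitions triglyceride into droplets, had 14.8 normalized counts at 8 weeks and 86.2 at 28 weeks (log2 ratio 2.55 ± 0.66, adjusted p = 0.00584) and rose in the knockout too (2.70 ± 0.72, adjusted p = 0.00855). Ces3a, a carboxylesterase, rose (log2 ratio 1.30 ± 0.36, adjusted p = 0.0131), and Ces1d, another with which it belongs to a family of near copies, fell (log2 ratio -1.04 ± 0.28, adjusted p = 0.00976). Mgll, monoglyceride lipase, fell from 7066 to 4320.2 (log2 ratio -0.71 ± 0.20, adjusted p = 0.017), and differed between genotypes by -1.15 ± 0.28 (adjusted p = 0.00841). Cd36, a fatty acid transporter, did not pass in wild type (-1.08 ± 0.40, adjusted p = 0.116) but rose in the knockout (1.84 ± 0.54, adjusted p = 0.0195), a difference of -2.92 ± 0.67 (adjusted p = 0.00332).

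Drug metabolism genes changed in each direction. Of 41 cytochrome P450 genes of families 1 to 3 and their receptors, 3 rose, 4 fell and 34 did not pass. The called share was 17.1%, against 4.24% of all tested genes. Por, the reductase that feeds electrons to microsomal P450 enzymes, fell from 37091 to 11604 normalized counts (log2 ratio -1.68 ± 0.34, adjusted p = 1.2e-04) by the authors' deposited table. Nr1i3, the constitutive androstane receptor, had 6123 normalized counts at 8 weeks and 2852 at 28 weeks (log2 ratio -1.10 ± 0.31, adjusted p = 0.0145), Cyp2c37, a P450 under its control, 33166 normalized counts at 8 weeks and 12566 at 28 weeks (log2 ratio -1.40 ± 0.20, adjusted p = 8.3e-09), and Cyp2a5, a coumarin hydroxylase, 42303 normalized counts at 8 weeks and 9584 at 28 weeks (log2 ratio -2.14 ± 0.65, adjusted p = 0.028). Nr1i3 (-1.71 ± 0.43, adjusted p = 0.00979) and Cyp2c37 (-1.84 ± 0.37, adjusted p = 3.5e-04) differed between genotypes in their age effect. Higher were Cyp2d9, a testosterone hydroxylase of male liver (log2 ratio 4.36 ± 1.16, adjusted p = 0.00793), Cyp2f2 (log2 ratio 0.81 ± 0.23, adjusted p = 0.016) and Cyp2d40 (log2 ratio 0.53 ± 0.16, adjusted p = 0.0237) by the authors' deposited table. P450 subfamilies hold near copies, and their values are uncertain where reads are shared.

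Conjugating enzymes attach sulfate, glucuronide, glutathione or methyl groups. Of 47 tested, 9 rose, 3 fell and 35 did not pass (25.5% called, against 4.24% of all tested genes). The median log2 ratio was 0.10. Of the 9 that rose, 4 (Gstp1, Gstp2, Ugt2b1 and Ugt2b38) are also in the male-biased list. Sult1b1 (log2 ratio 0.53 ± 0.12, adjusted p = 8.3e-04) and Sult2a8 (log2 ratio 0.81 ± 0.20, adjusted p = 0.00277), sulfotransferases, rose by the authors' deposited table. Ugt1a1, which conjugates bilirubin, fell from 19159 to 10262 (log2 ratio -0.90 ± 0.20, adjusted p = 6.8e-04), and Ugt1a9 (log2 ratio -0.90 ± 0.16, adjusted p = 9.1e-06), though these transcripts share their last exons and can share reads. Sult1d1, a sulfotransferase of catecholamines, fell (log2 ratio -0.99 ± 0.28, adjusted p = 0.0151) and differed between genotypes by -1.83 ± 0.42 (adjusted p = 0.00332). Of 25 steroid and retinol dehydrogenase genes 2 rose and 3 fell (20% called). The 2 that rose were Hsd3b5, also in the male-biased list, and Srd5a1. Srd5a1, a steroid reductase that activates testosterone, rose in wild type (930.0 to 2979.7, log2 ratio 1.68 ± 0.30, adjusted p = 5.6e-06) and in the knockout (1.63 ± 0.49, adjusted p = 0.026), while Hsd17b6 (log2 ratio -0.80 ± 0.17, adjusted p = 3.5e-04), Rdh9 (log2 ratio -0.85 ± 0.19, adjusted p = 5.1e-04) and Akr1c20 (log2 ratio -0.42 ± 0.13, adjusted p = 0.0395, lost over every gene with a p) were lower in the authors' deposited table. Of 18 Nrf2 target genes, Osgin1 rose (log2 ratio 1.27 ± 0.38, adjusted p = 0.0283) and Nqo1, a quinone reductase, fell (log2 ratio -1.14 ± 0.35, adjusted p = 0.0286). Called Nrf2 targets made up 11.1% of those tested.

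Of 25 acute phase genes, which code for plasma proteins of inflammation, 4 rose, 1 fell and 20 did not pass. The called share was 20%, against 4.24% of all tested genes. Log2 ratios were positive in 15 and negative in 10, with a median of 0.08. The 3 fibrinogen chains rose together, Fga from 197581 to 300129 normalized counts (log2 ratio 0.60 ± 0.17, adjusted p = 0.0194), Fgb from 257865 to 372265 (log2 ratio 0.53 ± 0.13, adjusted p = 0.00431) and Fgg from 98270.1 to 155160.0 (log2 ratio 0.66 ± 0.16, adjusted p = 0.00302) by the authors' deposited table. In the knockout their log2 ratios were -0.43 ± 0.19, -0.44 ± 0.20 and -0.40 ± 0.19 and did not pass, and the age effects differed between genotypes by 1.03 ± 0.26 (adjusted p = 0.00976), 0.97 ± 0.24 (adjusted p = 0.00831) and 1.06 ± 0.25 (adjusted p = 0.00509). Hamp, hepcidin, the hormone that limits iron uptake, fell from 45539 to 23299 (log2 ratio -0.97 ± 0.27, adjusted p = 0.0138). Its knockout values were 7860 and 38314 and did not pass (2.29 ± 1.02, adjusted p = 0.219). A difference between genotypes was not shown for Hamp (-3.25 ± 1.05, adjusted p = 0.105). Orm1, an orosomucoid, rose (log2 ratio 0.40 ± 0.13, adjusted p = 0.0472, lost over every gene with a p). Iron handling held 2 more calls of 22, Hjv, a coreceptor upstream of hepcidin (log2 ratio 0.69 ± 0.13, adjusted p = 1.1e-05), and Steap3, a ferrireductase (log2 ratio 0.77 ± 0.19, adjusted p = 0.00285), each higher, and Steap3 differed between genotypes by 1.08 ± 0.31 (adjusted p = 0.0437). With Hamp, calls made up 13.6% of the iron list.

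Complement and coagulation genes included 4 that rose and 0 that fell of 36 (11.1% called, against 4.24% of all tested genes). Of the 36, 29 had positive log2 ratios. C6, of the membrane attack complex and also in the male-biased list, went from 820.4 to 11204 normalized counts (log2 ratio 3.77 ± 0.95, adjusted p = 0.00404), and C8b, of the same complex, from 9474 to 32581 (log2 ratio 1.78 ± 0.37, adjusted p = 2.2e-04) by the authors' deposited table. F11, coagulation factor XI, had 3194 normalized counts at 8 weeks and 6959.7 at 28 weeks (log2 ratio 1.12 ± 0.22, adjusted p = 6.5e-05), and differed between genotypes by 1.29 ± 0.28 (adjusted p = 0.00171). The Serpina cluster, inhibitors of serine proteases with many near copies, had 5 genes higher and 1 lower of 17 (35.3% called). Serpina1e, an antitrypsin copy, went from 114721 to 458615 (log2 ratio 2.0 ± 0.35, adjusted p = 3.7e-06), and Serpina12, vaspin and also in the male-biased list, from 367 to 3008 (log2 ratio 3.03 ± 0.39, adjusted p = 2.0e-11) by the authors' deposited table. Serpina6, which carries corticosteroids in plasma, fell from 15273 to 4389 (log2 ratio -1.80 ± 0.32, adjusted p = 5.3e-06).

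Interferon response genes had 5 members higher and 0 lower of 37 tested (13.5% called, against 4.24% of all tested genes). Their median log2 ratio was 0.30. Rsad2, an antiviral radical enzyme, had 272 normalized counts at 8 weeks and 674 at 28 weeks (log2 ratio 1.31 ± 0.30, adjusted p = 0.00105), Isg15, a ubiquitin-like modifier, 376 normalized counts at 8 weeks and 716 at 28 weeks (log2 ratio 0.93 ± 0.26, adjusted p = 0.0142), and Oasl1 309.9 normalized counts at 8 weeks and 662 at 28 weeks (log2 ratio 1.10 ± 0.25, adjusted p = 8.9e-04) by the authors' deposited table. Ifit1 (log2 ratio 0.93 ± 0.28, adjusted p = 0.0252) and Mx2 (log2 ratio 0.76 ± 0.24, adjusted p = 0.0427, lost over every gene with a p) were the other two. In the knockout 0 rose and 1 fell, and Rsad2 (1.88 ± 0.53, adjusted p = 0.0372) and Isg15 (1.72 ± 0.41, adjusted p = 0.00616) differed between genotypes. Of 32 unfolded protein and stress response genes, Pdia4, a disulfide isomerase (log2 ratio 0.60 ± 0.16, adjusted p = 0.00581), and Trib3, a pseudokinase (log2 ratio 1.23 ± 0.35, adjusted p = 0.0149), rose, and Ddit3, a stress-induced factor gene (log2 ratio -0.56 ± 0.18, adjusted p = 0.0394, lost over every gene with a p), was lower in the authors' deposited table. Calls made up 9.38% of this stress list.

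Among 51 amino acid and urea cycle genes, 5 rose and 1 fell (11.8% called, against 4.24% of all tested genes). Bhmt, which remethylates homocysteine with betaine, rose from 85928 to 243588 normalized counts (log2 ratio 1.50 ± 0.16, adjusted p = 1.5e-16) by the authors' deposited table. Hal, histidase, had 16446 normalized counts at 8 weeks and 26842 at 28 weeks (log2 ratio 0.71 ± 0.17, adjusted p = 0.0019), Gldc, of glycine cleavage, 5190.3 normalized counts at 8 weeks and 10834 at 28 weeks (log2 ratio 1.06 ± 0.26, adjusted p = 0.00262), and Kynu, kynureninase, 3142 normalized counts at 8 weeks and 4981 at 28 weeks (log2 ratio 0.66 ± 0.16, adjusted p = 0.00232). Tat, a glucocorticoid-induced aminotransferase and hepatocyte marker, fell from 119937 to 60124 (log2 ratio -1.0 ± 0.29, adjusted p = 0.0233). Of 14 periportal genes 3 rose, Hal, Gldc and Cyp2f2, and 0 fell, and of 16 pericentral genes 0 rose and 1 fell, Rnf43, a brake on Wnt signalling (log2 ratio -0.80 ± 0.22, adjusted p = 0.00982). The called shares were 21.4% of periportal and 6.25% of pericentral genes. The medians of the zones were -0.05 and -0.28. Of 30 glucose and glycogen genes 2 fell. Sik1, a kinase induced by cyclic AMP, fell from 1868 to 439 (log2 ratio -2.09 ± 0.46, adjusted p = 5.0e-04). Of 18 growth hormone and IGF1 axis genes, Igfbp4 fell (log2 ratio -0.49 ± 0.16, adjusted p = 0.0498, lost over every gene with a p and after centring), while Igf1 had 32303 normalized counts at 8 weeks and 34067 at 28 weeks (log2 ratio 0.08 ± 0.16, adjusted p = 0.911). Of 17 hepatocyte transcription factor genes, Prox1 fell (log2 ratio -0.63 ± 0.20, adjusted p = 0.0444, lost over every gene with a p). The glucose, growth hormone and transcription factor lists held 6.67%, 5.56% and 5.88% called. These shares and the pericentral one are near the 4.24% of all tested genes.

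**Figure D4:**
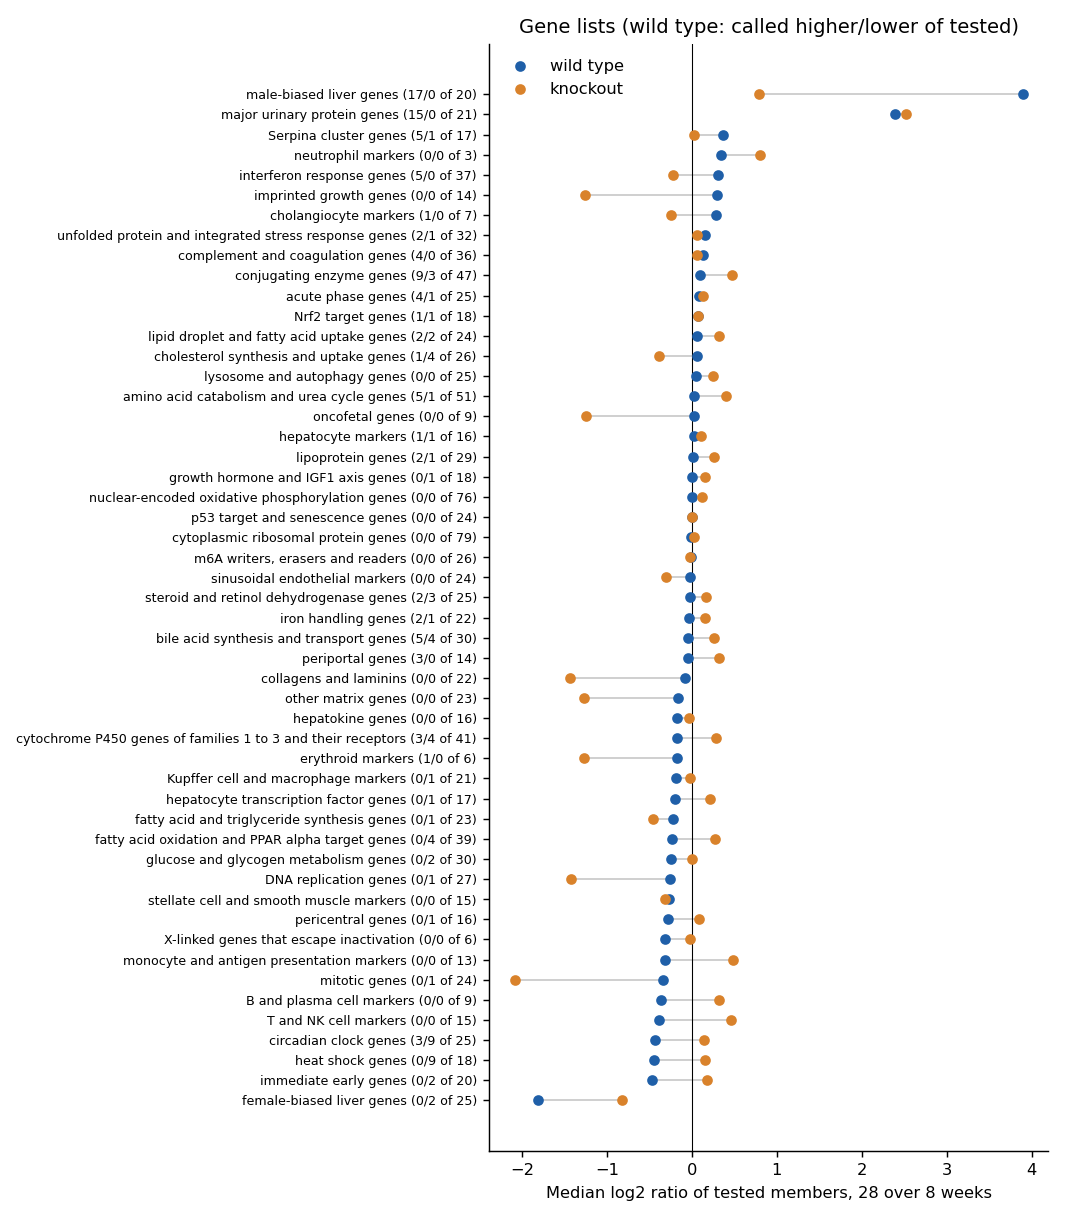
Median log2 ratio of 28 over 8 weeks (x axis) of the tested members of each gene list with at least 3 of them, wild type in blue and knockout in orange, with the wild-type counts called higher and lower of those tested in each row label; the Y-linked list is left out. The male-biased list has the highest wild-type median at 3.90, and collagen, matrix, mitotic and replication lists lie lower in the knockout than in wild type.

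Growth and matrix genes are given beside the 4.24% of all tested genes called in wild type. Of 24 tested mitotic genes, 0 rose and 1 fell, Spc25, a kinetochore subunit, from 523 to 213 normalized counts (log2 ratio -1.30 ± 0.31, adjusted p = 0.00226) by the authors' deposited table. It also fell in the knockout, from 564 to 237 (-1.25 ± 0.28, adjusted p = 6.6e-04). Of 27 replication genes 0 rose and 1 fell, Lig1, which joins Okazaki fragments (log2 ratio -0.82 ± 0.20, adjusted p = 0.0026). These shares, 4.17% and 3.7%, are near that of all genes. DESeq2 called 0 of 22 collagen and laminin genes (4 at an unadjusted p under 0.05), 0 of 23 other matrix genes (2), 0 of 14 imprinted growth genes (2) and 0 of 9 oncofetal genes (1). In the knockout, where 2.46% of all tested genes were called lower, the genes called were 12 of 34 mitotic, 10 of 27 replication, 15 of 22 collagen and laminin, 13 of 26 other matrix, 4 of 15 imprinted and 4 of 10 oncofetal genes, each of them lower at 28 weeks. The age effect differed between genotypes for 12 of 22 collagen and laminin genes and 6 of 25 other matrix genes, with wild type above in every one, and for 0 of 34 mitotic and 0 of 27 replication genes. Col3a1, a fibrillar collagen, held 2175 and 2079 normalized counts in wild type, against 10209.5 and 1596 in the knockout, a difference of 2.61 ± 0.44 (adjusted p = 2.4e-06). The same difference was 2.86 ± 0.56 (adjusted p = 1.4e-04) for Col1a1, another fibrillar chain, 2.55 ± 0.36 (adjusted p = 4.4e-09) for Col4a1 of basement membrane, and 5.33 ± 0.72 (adjusted p = 4.8e-10) for Igf2bp3, a reader of RNA in fetal tissue. Lpl, lipoprotein lipase, did not pass in wild type (0.39 ± 0.37, adjusted p = 0.712) and fell in the knockout (-2.81 ± 0.22, adjusted p = 3.0e-32), a difference of 3.20 ± 0.43 (adjusted p = 2.7e-10). The 8-week knockout carried the muscle markers given above, and their part in these differences was not tested.

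The promoter of Spc25 is printed because it is the mitotic gene that fell in each genotype (chr2:69206164-69206463, minus strand, RefSeq, GRCm38.p6). Capitals mark the cell cycle homology region TTTGAA, bound by a repressor complex in resting cells.
Spc25: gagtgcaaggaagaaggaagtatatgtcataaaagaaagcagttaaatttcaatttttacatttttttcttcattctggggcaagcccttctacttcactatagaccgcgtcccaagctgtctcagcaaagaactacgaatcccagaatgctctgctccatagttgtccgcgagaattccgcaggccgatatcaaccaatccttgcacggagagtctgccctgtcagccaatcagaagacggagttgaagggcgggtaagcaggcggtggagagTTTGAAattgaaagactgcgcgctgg
Searched on each strand, these letters lay in 15 of 19 mitotic list windows (78.9%), 3 of 21 replication list windows (14.3%) and 1315 of 10654 windows of tested genes (12.3%). The CCAAT box lay in 16 of the 19 mitotic windows (84.2%) and in 38.8% of all, and the E2F core GGCGGGAA in 4 of 21 replication windows (19%) and in 3.88% of all. Lig1 held neither GGCGGGAA nor TTTGAA in its first listed window.

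**Figure D5:**
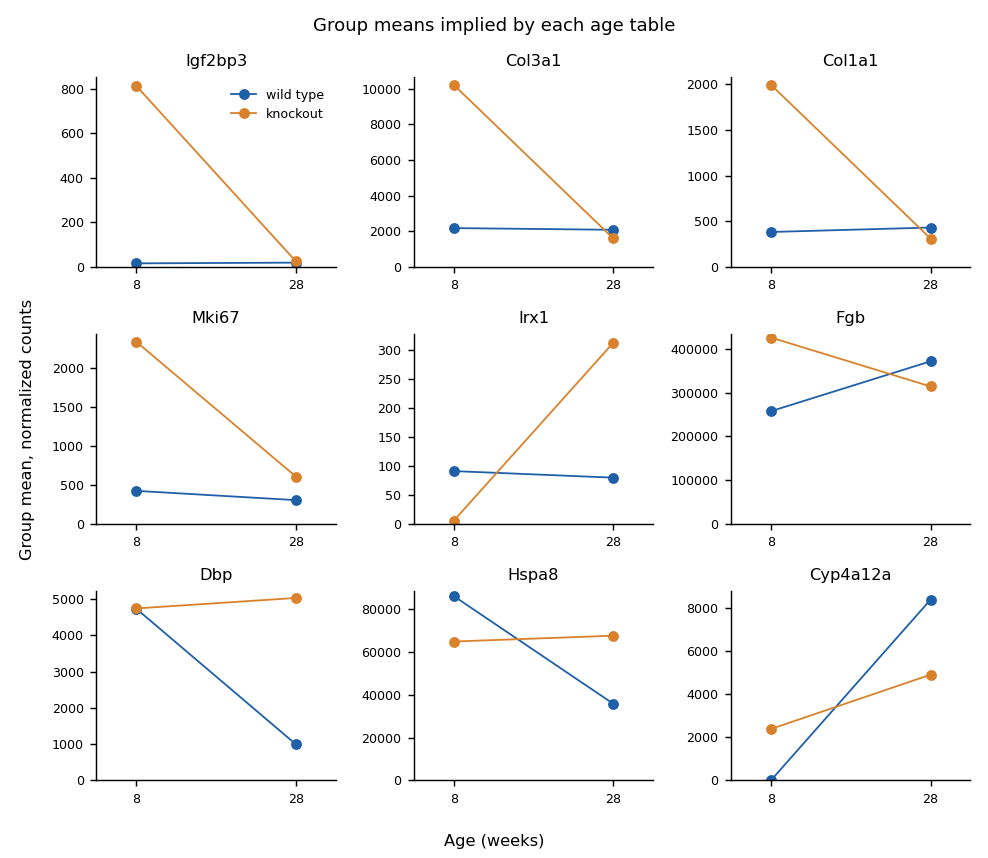
Group means in normalized counts (y axis, from 0) at 8 and 28 weeks (x axis) for 9 genes, wild type in blue and knockout in orange, 3 animals per group; each genotype comes from its own table, normalized separately, and no error is drawn because the tables give it for the ratio only. Wild-type Col3a1, Col1a1 and Igf2bp3 stay near their 8-week level while the knockout starts high, and Dbp and Hspa8 end lower in wild type than in the knockout.

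Setting the genotypes side by side, the wild-type and knockout age tables share no library. The knockout table called 301 genes higher and 364 lower. Genes called higher in each numbered 33, which is 10.3% of the wild-type and 11% of the knockout calls, and genes called lower in each 12 (4.78% and 3.3%). Another 4 rose in wild type and fell in the knockout, and 2 did the reverse. The age effect differed for 204 of 17029 genes, with wild type above in 104 and below in 100. Of the 204, 63 were called with age in wild type, 126 in the knockout, 8 in each and 23 in neither. Irx1, a homeobox factor gene, held 90.9 and 79.5 normalized counts in wild type and 4.85 and 313 in the knockout (a difference of -6.20 ± 0.77, adjusted p = 3.4e-12).

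Cell type markers were tested for the makeup of the tissue. In bulk tissue, fewer cells of a type and less RNA per cell cannot be told apart. DESeq2 called 0 of 15 stellate and smooth muscle markers (6 at an unadjusted p under 0.05), 0 of 24 sinusoidal endothelial markers (1), 0 of 13 monocyte and antigen presentation markers (1), 0 of 15 T and NK cell markers (1), 0 of 9 B and plasma cell markers (0) and 0 of 3 neutrophil markers (0). Of 21 Kupffer cell and macrophage markers 0 rose and 1 fell, Aif1, an actin-binding protein of macrophages (log2 ratio -0.71 ± 0.22, adjusted p = 0.0399), a call lost when p was adjusted over every gene with one, and their summed group means were 40442 and 35664 normalized counts. That call is 4.76% of the list, near the 4.24% of all tested genes. Log2 ratios were negative in 20 of the 21 Kupffer cell and macrophage markers (median -0.19) and 12 of 13 monocyte and antigen presentation markers (-0.32). They were negative in 13 of 15 stellate and smooth muscle markers (-0.27) and 13 of 15 T and NK cell markers (-0.39). For endothelial markers it was 15 of 24 (-0.02), for B and plasma cell markers 7 of 9 (-0.37), and for neutrophil markers 1 of 3 (0.34). The median over all tested genes was -0.01. Alas2, the erythroid haem synthase, rose from 544 to 4379 (log2 ratio 3.01 ± 0.97, adjusted p = 0.0453) as the sole call of 6 erythroid markers, lost when p was adjusted over every gene with one, while the globin gene Hbb-bs stood at 708 and 399.7. Sox9, a cholangiocyte factor gene, rose from 185 to 479.7 (log2 ratio 1.38 ± 0.28, adjusted p = 1.2e-04), 1 of 7 markers of that type. Of 16 hepatocyte markers, Serpina1c rose (log2 ratio 0.60 ± 0.11, adjusted p = 7.7e-06) and Tat fell. Cela1, an elastase, rose from 97.5 to 353 (log2 ratio 1.86 ± 0.42, adjusted p = 9.3e-04), while other pancreas markers had means of 0 or near it.

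Basic cell machinery showed no calls. DESeq2 called 0 of 79 cytoplasmic ribosomal protein genes (2 at an unadjusted p under 0.05), 0 of 76 nuclear oxidative phosphorylation genes (0), 0 of 25 lysosome genes (3), 0 of 24 p53 target genes (2), 0 of 16 hepatokine genes (3) and 0 of 26 m6A writers, erasers and readers (2). Their median log2 ratios ran from -0.17 for hepatokines to 0.04 for lysosome genes. X-linked genes that escape inactivation had 0 calls of 6 (1), with a median of -0.32. All 6 had negative log2 ratios in wild type, and their knockout median was -0.02. The 13 mitochondrially encoded genes were not analysed here.

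A second readout of the same 6 libraries, input reads summed at m6A sites, was compared gene by gene. Of 524 called genes with at least 100 such reads, 510 (97.3%) had a read ratio of the same sign as the log2 ratio, against 66.3% of 10696 genes not called. Across 11220 genes, which are not independent replicates and share libraries between the readouts, Pearson's r was 0.893. Hspa8 had 175993 input reads at its sites at 8 weeks and 64196 at 28 weeks, and Ddx3y 5 and 4189. Of 20246 m6A sites tested for age in wild type, 2232 (11%) were called in the authors' deposited table of sites. Among genes with a tested site, 129 of 432 called genes (29.9%) held a called site, against 1556 of 7866 not called (19.8%), with a median of 2 tested sites in each. These sets were not matched for RNA level or read depth, and a link between RNA calls and site calls was not tested.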

How the data were processed

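Input liver RNA of 3 wild-type mice per age was sequenced in stranded libraries with molecular identifiers of 8 random bases, per the labels' protocols. HISAT2, StringTie and DESeq are named, with no version, in the submitters' processing notes. The genome build, the annotation and the site caller remain not given in the sources used here. Signal values are the authors' means over 6 libraries of counts divided by size factors. The log2 values are deposited ratios with their SE, and the score is the deposited Wald statistic. Each p-value was deposited by the authors, with a Benjamini-Hochberg adjusted p from the DESeq2 Wald test. Site counts are input and pulled-down reads summed by the authors over a group's libraries, per the file headers. These tables give group summaries, so depth per sample is unknown and the authors' test was kept.

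A positive deposited ratio meant higher at 8 weeks, so signs were turned. With 1 sign rule in common the 4 RNA tables closed within 0.00358 (median size of the residual, 10840 genes), and with opposite rules for age and genotype within 0.508. This closure would hold with all signs turned, so alone it does not give the direction. Site sums were shared with the single-age tables at 21900 and 22361 sites, against 31 to 56 for other pairs of columns. After turning, 510 of 524 called genes had input read ratios at sites of the same sign. Group means follow from the mean of 6 libraries and the ratio. A floor of 3 counts over a group stood for means below it. The difference between genotypes was the wild-type minus the knockout log2 ratio, with SE from each, a Wald p and Benjamini-Hochberg adjustment over 17029 genes. This test was first tested on simulated data. Each p-value sets a ratio against the variation that DESeq2 fitted to these libraries, 3 animals per group. The labels do not say whether animals of a group were littermates or shared a day, and the p-values do not account for such sharing.

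Genes were named by rule: Apof, the 10 highest and 10 lowest called ratios with at least 100 normalized counts in the higher group, up to 3 called members per list and direction, and the 6 highest and 6 lowest differences between genotypes. Some genes that the rule names are not reported here, though counts over lists include them. Members and the 54 lists were chosen with earlier results of these data known. Further list members, the collagens, Lpl, Cd36, Slc10a1, genes in no list, and the clock and heat shock motifs were chosen after their values were seen. Alternatives were a stricter p, a minimum fold, other sets of genes for adjustment, centring, and leaving out sex-linked and sex-biased lists. RefSeq windows (GRCm38.p6) matched 10654 of 13474 tested genes by symbol, and the first listed was used. The software was scipy 1.17.1, pandas 2.3.3, numpy 2.4.6 and matplotlib 3.10.9 under Python 3.11.15.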

Additional observations from a re-analysis of the deposited data

Results flagged for a closer look

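These genes had an age effect that differed between wild type and knockout by a Wald test of the difference itself (Benjamini-Hochberg, adjusted p under 0.05), and each is given as wild-type minus knockout log2 ratio. The 8-week knockout held muscle markers and Y-linked RNA that the 8-week wild type almost lacked, and the part of either in these differences was not tested.

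Wild type lay below the knockout for Irx1 (-6.20), Lncbate1 (-5.01), Mfsd2a, a lysolipid transporter (-4.80), Noct (-4.41), Serpinb1a, a protease inhibitor (-4.31), Usp2 (-4.14), Cd36 (-2.92), Peli3, a ubiquitin ligase (-2.65), Dbp (-2.34), Pcp4l1 (-2.16), Lipg (-2.06), Cyp2c37 (-1.84), Sult1d1 (-1.83), Nr1i3 (-1.71), Hspa8 (-1.33), Mgll (-1.15) and Eci2 (-0.95).

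Wild type lay above the knockout for Fgb (0.97), Ethe1, a sulfur dioxygenase (0.99), Fga (1.03), Fgg (1.06), Steap3 (1.08), Slc10a1 (1.22), F11 (1.29), Isg15 (1.72), Rsad2 (1.88), Gvin1, an interferon-induced GTPase (2.08), Col4a1 (2.55), Col3a1 (2.61), Col1a1 (2.86), Lpl (3.20), 4930452B06Rik (4.48), Gria3, a glutamate receptor subunit (4.68), Igf2bp3 (5.33), Cd209f, a lectin (7.73), Akap2, a kinase anchor (10.81), and Cyp4a12a (11.14). Akap2 and Cd209f rest on group means near 0 in the 28-week knockout (0.186 and 1.3 normalized counts), so the size of their difference depends on the fit.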

How the results depend on the processing

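At an adjusted p under 0.01, 290 genes remained called in wild type, 173 higher and 117 lower, and the difference between genotypes called 111 genes in place of 204. Asking also for a 2-fold change left 279, 168 and 111. Every other setting for the counts stayed within 1.5 times. Adjusting over every gene with a p called 507. A mean of at least 10 called 571, and a mean of at least 100 called 575. Centring on the median of abundant genes called 571. For the difference, a mean of at least 100 in each genotype gave 193 and centring gave 205. Leaving out the sex-linked and sex-biased lists left 549, which only takes their called members out. This removal cannot show how far other calls depend on sex, because genes outside those lists stay in. Of the named genes, 171 kept their side of the threshold and 15 lost their call under adjustment over every gene with a p: Rad51b, Ciart, Cyp4a14, Noct, Kdm5d, Aif1, Alas2, Akr1c20, Ddit3, Igfbp4, Prox1, Hspa4l, Mx2, Orm1 and Serpina1a. Neither this setting nor centring could reverse a call, because the first leaves ratios unchanged and centring subtracts a median of only -0.0017. Centring ended 1 call, Igfbp4. Leaving out a replicate was not possible, because the tables hold group summaries. No paired analysis was possible because the age groups share no animal number and no values per library are in the tables. Genes of low mean are limited by depth: the lowest tested mean was 14.6 normalized counts.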

Other observations

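Of 571 called genes, 430 are in none of the 54 lists, and the following were picked from them by smallest p after their values were seen. Insig2, which holds the sterol sensor in the endoplasmic reticulum, rose from 2007 to 6371 normalized counts (log2 ratio 1.67 ± 0.21, adjusted p = 1.5e-11) in the authors' deposited table. Aacs, which makes acetoacetyl-CoA for sterol and fatty acid synthesis, fell from 7075 to 2451 (log2 ratio -1.53 ± 0.23, adjusted p = 4.1e-08) in the authors' deposited table. Ethe1, which clears sulfide products in mitochondria, rose from 525 to 1463 (log2 ratio 1.48 ± 0.23, adjusted p = 5.2e-08) in the authors' deposited table.

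Others are given singly. Krt18, a hepatocyte keratin, had 8064 normalized counts at 8 weeks and 13173 at 28 weeks (log2 ratio 0.71 ± 0.12, adjusted p = 6.2e-07), and Lama3, a laminin chain outside the collagen and laminin list, 27.6 normalized counts at 8 weeks and 451 at 28 weeks (log2 ratio 4.03 ± 0.68, adjusted p = 1.5e-06) in the authors' deposited table. Lama3 already had 321 normalized counts in the 8-week knockout and 282 at 28 weeks. Carmil1, a regulator of actin capping, rose (log2 ratio 1.96 ± 0.26, adjusted p = 1.8e-10), and Gas7, an actin-binding protein gene, rose (log2 ratio 2.09 ± 0.31, adjusted p = 2.2e-08), in the knockout too (log2 ratio 1.43 ± 0.38, adjusted p = 0.00839). Tgm1, a transglutaminase, fell (log2 ratio -1.50 ± 0.23, adjusted p = 4.1e-08), and Peli3 fell (log2 ratio -1.92 ± 0.31, adjusted p = 3.1e-07) in the authors' deposited table. Gvin1, an interferon-induced GTPase outside the interferon list, rose from 404 to 1686 (log2 ratio 2.06 ± 0.30, adjusted p = 6.2e-09). Necab1, a calcium-binding protein gene, rose in wild type (log2 ratio 1.05 ± 0.14, adjusted p = 4.6e-11) and in the knockout (0.87 ± 0.23, adjusted p = 0.00662). Zfp992, a zinc finger gene, was near 0 at 8 weeks in each genotype (0.167 and 0.18 normalized counts) and stood at 60.1 and 119 at 28 weeks, called in wild type (adjusted p = 3.4e-07) and not in the knockout (adjusted p = 0.173).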
